A study of Rattus norvegicus with 6 samples.

Results

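The D-type cyclins, the kinases they switch on, 4 proteins that hold those kinases back and the retinoblastoma protein were followed between 2 ages in cultured rat testis cells labelled as Sertoli cells. The 10 genes were taken by name (Ccnd1, Ccnd2, Ccnd3, Cdk4, Cdk6, Cdkn1a, Cdkn1b, Cdkn2b, Cdkn2c and Rb1) from the 14506 genes with an unambiguous probe set, and each of the 10 has 1 probe set. Cells came from testes of 21-day-old rats, which the labels place after the proliferation phase of Sertoli cells, and from testes of 9-day-old rats, placed within it. Each age has 3 arrays, numbered 1 to 3 in the titles. Cultures of both ages were grown in dishes in DMEM/F12 with 10% fetal bovine serum and received fresh medium after a further 24 hours. Strain, the number of rats per culture and whether replicates came from separate rats are not given in the labels, so a p-value here measures the spread between these arrays, which may be technical. All values are RMA signals on the log2 scale, where a difference of 1 is a doubling, and RMA signals of different genes are not amounts that can be set against each other.

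D cyclins are made when growth factors act on a cell. They bind Cdk4 or Cdk6, and the active kinase phosphorylates the retinoblastoma protein, which then lets go of the E2F transcription factors that turn on genes for DNA synthesis. Inhibitors of the INK4 group (Cdkn2b, Cdkn2c) bind Cdk4 and Cdk6 themselves, while those of the Cip/Kip group (Cdkn1a, Cdkn1b) bind complexes of cyclin and kinase. In the mouse, loss of p27, the product of Cdkn1b, raises the number of Sertoli cells. Much of this control acts on the proteins, through phosphorylation and degradation, and a transcript array does not see it.

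The arrays were checked first for what cells they hold. The 22 measured Sertoli cell markers of 24 listed had mean signals of 5.07, 5.38 and 5.97 in 21-day-old replicates 1, 2 and 3, and 4.79, 4.91 and 4.87 in the 9-day-old replicates. Wt1, Gata4 and Clu lay above the upper quartiles of the arrays (6.04 to 6.12) in every array. Amh, Fshr and Cldn11 lay below the medians of the arrays (3.78 to 3.87) in every array, and Sox9 was not analysed here. Medians and quartiles of the arrays are taken over all 29214 probe sets, named or not. Of the 10 smooth muscle and peritubular markers 9 were measured, with means of 8.17, 7.61 and 9.44 at 21 days and 8.27, 8.45 and 9.74 at 9 days, so the arrays numbered 3 stood above the others at both ages. With age, all 9 smooth muscle markers were lower at 21 days (median -0.35, 5 of them in all 3 pairs) and 18 of the 22 Sertoli cell markers higher (median 0.27, 12 of them in all 3 pairs), none past the test. The 8 fibroblast markers had means of 9.23, 9.25 and 8.90 at 21 days and 9.27, 9.19 and 9.19 at 9 days. At 21 days 6 of them were lower, Pdgfra (-0.73) and Pdgfrb (-0.61) without overlap (2.98% of all genes), and 2 higher, Thy1 by 1.03, none past the test. Leydig cell, macrophage and endothelial lists had array means between 3.26 and 4.33, but not all of their markers were low. The Leydig cell marker Star lay between 10.84 and 11.28 and the macrophage marker Cd14 between 7.38 and 8.21. The Leydig cell marker Insl3 (3.98 to 4.59) and the endothelial marker Cdh5 (4.66 to 5.27) lay above the medians of the arrays in every array. Of 10 measured germ cell markers, 6 lay below the medians of the arrays in every array, among them Ddx4 and Sycp3. The other 4 (Gfra1, Uchl1, Tex101 and Piwil1) were above them in at least 1 array, and Uchl1, which neurons also express, lay between 7.68 and 8.43 at 21 days and between 8.02 and 8.22 at 9 days. Among the 14506 genes alone, the mean percentiles of these 4 were 43.0, 90.1, 29.2 and 39.5, so only Uchl1 lay above the middle. In such cultures, fewer cells of a type and less RNA per cell cannot be told apart.

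None of the 10 genes passed the test for a difference between the ages. In limma, adjusted p-values over all 14506 genes were 1 for each of them, and no gene of the array passed a threshold of 0.05 (0% called). With the replicate number as a block, limma's adjusted p-values of the 10 lay between 0.412 and 0.980, and again no gene passed (0%). By direction alone, 7 of the 10 were lower and 3 higher at 21 days, where 53.3% of all genes were lower, and their median difference was -0.13, beside -0.0093 over all genes. Between arrays of the same number, 3 of the 10 (Ccnd2, Cdk4 and Cdkn2c) were lower at 21 days in all 3 pairs, as were 14.4% of all genes. Cdkn2b was higher in all 3 pairs, as were 10.7% of all genes. Ccnd2 was the 1 member whose ages did not overlap, with the 21-day-old arrays below the 9-day-old ones, which held for 2.98% of all genes. All 10 had mean signals above the medians of the arrays at both ages, and 8 of them above the upper quartiles, both taken over all probe sets. Among the 14506 genes alone, mean percentiles of the 10 ran from 63.8 (Cdkn2c) to 99.1 (Cdk4), with Cdkn1b at 74.0 and Cdkn2b at 73.5.

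**Figure D1:**
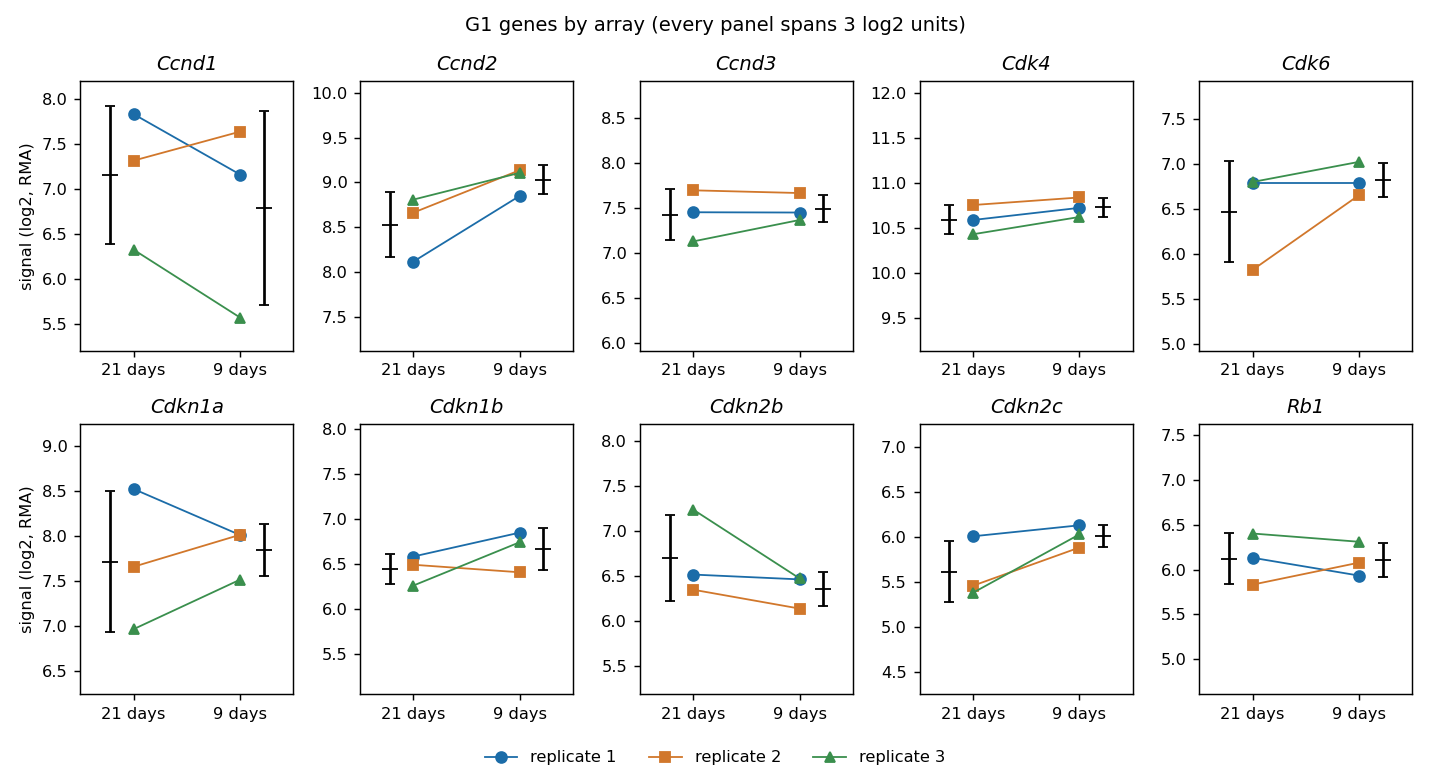
RMA signal (log2) of the 10 genes in each array, 21-day-old cultures on the left and 9-day-old cultures on the right of each panel, with lines joining arrays of the same replicate number and black bars for mean ± SD (n = 3 each). Every panel spans the same range, and Ccnd2 is the gene whose 3 values at 21 days all lie below the 3 at 9 days.

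Among the D cyclins, Ccnd2 had the largest difference with age and was lower in the older cultures. It was at 8.12, 8.66 and 8.81 in 21-day-old replicates 1, 2 and 3, against 8.85, 9.14 and 9.11 in the 9-day-old replicates. Every array of the older cells thus lay below every array of the younger ones, though 21-day-old replicate 3 and 9-day-old replicate 1 were only narrowly apart. The means were 8.53 ± 0.36 at 21 days and 9.03 ± 0.16 at 9 days (SD, n = 3 each), and the level at 21 days was 0.706 of that at 9 days. Cyclin D2 is the D cyclin that follicle-stimulating hormone raises in granulosa cells of the rodent ovary, the counterparts of Sertoli cells. The difference of -0.50 ± 0.20 (log2, SE) had a 95% interval from -0.99 to -0.016 before any adjustment. Its unadjusted p in limma was 0.0448, and 1.52% of all genes were below 0.05 on the lower side. With the replicate number as a block limma gave an unadjusted p of 0.00528, and 4.45% of genes were below 0.05 on that side. The 95% interval with that block was -0.77 to -0.23. Same-number pairs differed by -0.73, -0.47 and -0.30. Without 21-day-old replicate 1, the array with the lowest value, the difference was -0.30, and without both arrays numbered 3 it was -0.60.

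Ccnd1, the D cyclin most widely induced by serum and growth factors, varied more between replicate numbers than between ages. Its signals were 7.83, 7.32 and 6.33 in 21-day-old replicates 1, 2 and 3, and 7.16, 7.64 and 5.57 in the 9-day-old replicates. At both ages the array numbered 3 was the lowest, differing from the mean of the other arrays of its age by -1.25 (21 days) and -1.83 (9 days), and the ages overlapped widely. These are the 2 arrays in which smooth muscle markers were highest, and the part of those cells in the Ccnd1 signal was not tested. The means were 7.16 ± 0.77 at 21 days and 6.79 ± 1.08 at 9 days (SD, n = 3 each). The difference of 0.37 ± 0.64 (log2, SE) had a 95% interval from -1.20 to 1.94, which spans more than a doubling in each direction. The 3 pairs gave 0.67, -0.32 and 0.76, and without 9-day-old replicate 3 the sign turned, to -0.24. Without both arrays numbered 3 the difference was 0.17.

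Ccnd3, the D cyclin best known from lymphocytes and from tissues leaving the cell cycle, was nearly level. It was at 7.45, 7.69 and 7.13 in 21-day-old replicates 1, 2 and 3, and at 7.45, 7.66 and 7.36 in the 9-day-old replicates. The pairs numbered 1 and 2 differed by 0.0031 and 0.030, and the pair numbered 3 by -0.24. The difference of -0.068 ± 0.16 (log2, SE) had a 95% interval from -0.47 to 0.34, so changes within it were not excluded by that fit. With the replicate number as a block the interval was -0.29 to 0.15. The difference turned to 0.080 without 21-day-old replicate 3, to 0.018 without 9-day-old replicate 2 and to 0.017 without both arrays numbered 3.

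Whether the D cyclins shifted against each other was tested within arrays, as the log2 signal of one minus that of another. Such a value has no meaning as a level, since the probe sets differ, but its change with age compares how the 2 genes moved. Ccnd2 minus Ccnd1 was 0.28, 1.35 and 2.48 in 21-day-old replicates 1, 2 and 3, against 1.69, 1.50 and 3.54 in the 9-day-old replicates, a change of -0.87 that was negative in all 3 pairs (-1.41, -0.15 and -1.05). Ccnd2 minus Ccnd3 changed by -0.43, again lower at 21 days in all 3 pairs (-0.74, -0.50 and -0.060). Ccnd1 minus Ccnd3 changed by 0.44, with pairs of 0.67, -0.35 and 0.99. Exact two-sided permutation tests over the arrays gave p = 0.40, 0.30 and 0.70, and 0.80 for each after Benjamini-Hochberg adjustment over 4 such comparisons. These tests leave out the pairing by number, and with 3 arrays against 3 the smallest p they can give is 0.10.

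**Figure D2:**
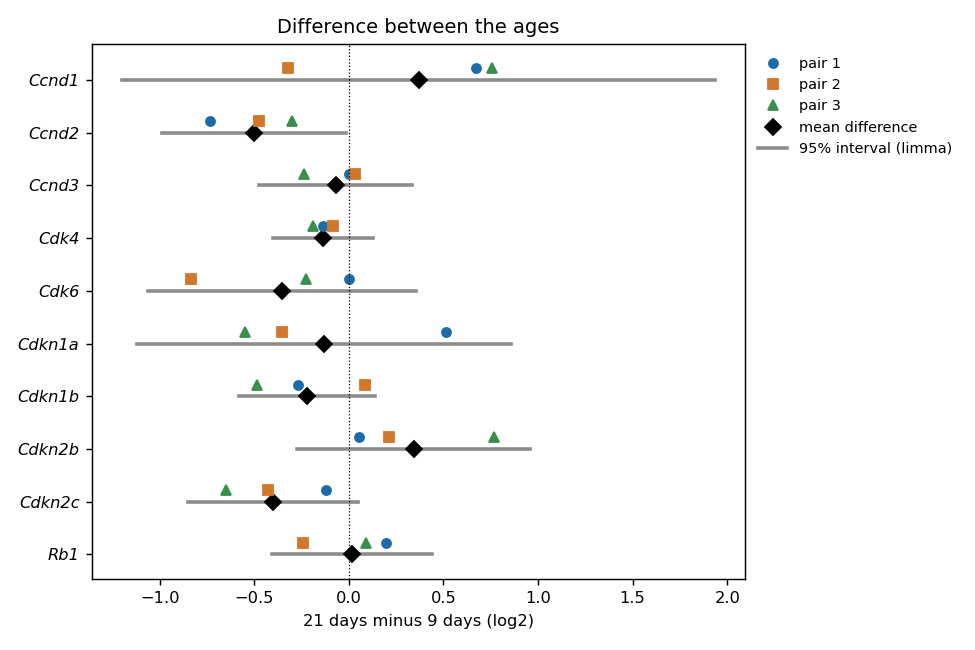
Difference between the ages (21 days minus 9 days, log2) for the 10 genes: black diamonds give the mean difference, grey lines the 95% interval of the limma fit without adjustment, and coloured points the 3 same-number pairs. The fit shown leaves out the pairing by number. In it the interval of Ccnd2 (-0.99 to -0.016) is the only one that leaves out 0, as did 1.52% of all genes on the lower side. Those of Ccnd1 and Cdkn1a are the widest. With the replicate number as a block (not drawn), those of Ccnd2 (-0.77 to -0.23) and Cdkn2c (-0.71 to -0.093) leave out 0. On the lower side 4.45% of all genes did so with that block.

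Of the kinases, Cdk4 was the steadiest gene of the 10, with the smallest range over the arrays. Its signals were 10.59, 10.76 and 10.43 in 21-day-old replicates 1, 2 and 3, and 10.73, 10.84 and 10.63 in the 9-day-old replicates. The older array was the lower one in each pair, by -0.14, -0.084 and -0.19, yet the ages overlapped because the numbers kept the same order at both ages. The difference was -0.14 ± 0.11 (log2, SE; 95% interval -0.40 to 0.13), or 0.909 of the level at 9 days, and -0.057 without 21-day-old replicate 3. The start region of Cdk4 is shown because the gene is a classic target of Myc, which binds the E-box CACGTG. It is taken from RefSeq (GRCr8, chr7:64771203-64771502, plus strand, 250 bases before to 50 after the annotated start), and capitals mark CACGTG, a palindrome searched on both strands. The letters occurred 3 times there, starting 203, 183 and 95 bases before the gene start, and at least once in 6.42% of the 33469 start regions of the rat.
Cdk4: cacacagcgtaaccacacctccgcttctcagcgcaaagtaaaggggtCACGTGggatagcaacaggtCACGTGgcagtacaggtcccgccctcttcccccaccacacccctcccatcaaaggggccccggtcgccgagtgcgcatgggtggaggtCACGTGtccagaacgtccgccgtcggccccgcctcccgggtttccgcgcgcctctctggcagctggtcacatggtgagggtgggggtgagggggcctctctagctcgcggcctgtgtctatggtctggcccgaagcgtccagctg
Myc itself, among the listed inputs to cyclin D transcription, differed by -0.046 ± 0.13 (log2, SE) between the ages. A match of letters is a description and not a measured binding site.

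Cdk6, the other partner of the D cyclins, was lower at 21 days on average through 1 array. It was at 6.79, 5.82 and 6.80 in 21-day-old replicates 1, 2 and 3, and at 6.79, 6.66 and 7.03 in the 9-day-old replicates. Only 21-day-old replicate 2 fell outside the range of 6.66 to 7.03 set by the younger arrays. The same array had the lowest mean of the smooth muscle markers, 7.61, whose part in the Cdk6 value was not tested. The difference was -0.35 ± 0.29 (log2, SE; 95% interval -1.06 to 0.36), with pairs of 0, -0.83 and -0.22, and it was -0.028 without that array. Cdk6 minus Cdk4 changed by -0.21 with age, with pairs of 0.14, -0.75 and -0.032, an exact two-sided permutation p of 0.80 and an adjusted p of 0.80. That change turned to 0.19 without 21-day-old replicate 2.

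The 4 inhibitors did not move in 1 direction: Cdkn2c, Cdkn1b and Cdkn1a were lower and Cdkn2b higher at 21 days, none past the test. Cdkn2c encodes p18, an INK4 inhibitor. It was at 6.01, 5.46 and 5.38 in 21-day-old replicates 1, 2 and 3, against 6.13, 5.88 and 6.03 in the 9-day-old replicates. Older replicates 2 and 3 lay below all younger arrays, while replicate 1 lay among them. The difference was -0.40 ± 0.18 (log2, SE; 95% interval -0.85 to 0.050), or 0.758 of the level at 9 days. The pairs gave -0.12, -0.43 and -0.65. Leaving out each array in turn gave values between -0.60 and -0.28. With the replicate number as a block its unadjusted p in limma was 0.0206 (95% interval -0.71 to -0.093), and the adjusted p 0.550. With that block 4.45% of all genes were below an unadjusted 0.05 on the lower side.

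Cdkn2b encodes p15, the INK4 inhibitor that transforming growth factor beta induces in epithelial cells. It was at 6.52, 6.35 and 7.24 in 21-day-old replicates 1, 2 and 3, and at 6.47, 6.14 and 6.48 in the 9-day-old replicates. The older array was higher in each pair (0.054, 0.21 and 0.77), but most of the mean difference of 0.34 ± 0.25 (log2, SE; 95% interval -0.27 to 0.96) came from 21-day-old replicate 3, and without it 0.074 was left (0.13 without both arrays numbered 3). That array also had the highest mean of the Sertoli cell markers, 5.97, and the highest smooth muscle marker mean of the 21-day-old arrays, 9.44. Whether its makeup bears on Cdkn2b was not tested.

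Cdkn1b encodes p27, the Cip/Kip inhibitor tied to the arrest of Sertoli cells. It was at 6.58, 6.49 and 6.26 in 21-day-old replicates 1, 2 and 3, and at 6.85, 6.41 and 6.74 in the 9-day-old replicates. Its mean was lower, not higher, in the older cultures: the difference was -0.22 ± 0.15 (log2, SE), with a 95% interval from -0.58 to 0.14 before adjustment. Pairs gave -0.27, 0.084 and -0.48. It was -0.13 without 21-day-old replicate 3 and -0.091 without both arrays numbered 3.

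Cdkn1a encodes p21, the Cip/Kip inhibitor that p53 induces. It was at 8.52, 7.66 and 6.96 in 21-day-old replicates 1, 2 and 3, and at 8.01, 8.01 and 7.52 in the 9-day-old replicates. The older arrays covered a range of more than 1.5 log2 units that took in all the younger ones. The difference of -0.13 ± 0.40 (log2, SE; 95% interval -1.12 to 0.86) turned to 0.24 without 21-day-old replicate 3, to 0.078 without both arrays numbered 3 and to 0.053 with array weights. The pairs gave 0.51, -0.36 and -0.55. As with Ccnd1, the arrays numbered 3 were the lowest at both ages, differing from the others by -1.13 at 21 days and -0.50 at 9 days.

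Rb1, the target of the cyclin D kinases, showed the smallest difference of the 10. It was at 6.13, 5.83 and 6.40 in 21-day-old replicates 1, 2 and 3, and at 5.93, 6.08 and 6.31 in the 9-day-old replicates. The ages overlapped fully and the pairs disagreed in sign (0.20, -0.25 and 0.092). The difference was 0.015 ± 0.17 (log2, SE), with a 95% interval from -0.41 to 0.44. Its sign turned with 4 of 18 alternative settings, to values between -0.12 and -0.010. Many of the 18 change only the block, filter, probe sets or variance model and cannot turn a sign.

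E2F factors act on some of these genes as well as on the genes of DNA synthesis, so the start regions were searched for E2F letters: TTCCCGC, the related forms TTGGCGC or TTCGCGC, and the form TTGCCGC, on both strands. RefSeq start regions were matched for 7 of the 10 genes. Ccnd1, Ccnd2 and Cdk6 were not matched. At least 1 E2F match lay in 3 of the 7 (Cdkn1b, Cdkn2c and Rb1), in 9.52% of all 33469 start regions, and in 11 of the 14 matched S-phase genes listed as E2F targets. These 3 genes differed between the ages by -0.40 (Cdkn2c), -0.22 (Cdkn1b) and 0.015 (Rb1), values not tested against each other. Their 3 start regions are shown. They lie at chr5:129644842-129645141 (Cdkn2c, minus strand), chr4:169491254-169491553 (Cdkn1b, plus strand) and chr15:54911808-54912107 (Rb1, minus strand) of GRCr8, each read 5′ to 3′ along the gene, with E2F matches in capitals.
Cdkn2c: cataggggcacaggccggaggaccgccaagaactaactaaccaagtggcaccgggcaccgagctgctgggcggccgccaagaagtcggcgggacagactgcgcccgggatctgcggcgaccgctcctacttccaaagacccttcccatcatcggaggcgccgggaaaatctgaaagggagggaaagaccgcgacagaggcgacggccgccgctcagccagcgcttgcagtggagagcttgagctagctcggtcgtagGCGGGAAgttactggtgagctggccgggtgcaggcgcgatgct
Cdkn1b: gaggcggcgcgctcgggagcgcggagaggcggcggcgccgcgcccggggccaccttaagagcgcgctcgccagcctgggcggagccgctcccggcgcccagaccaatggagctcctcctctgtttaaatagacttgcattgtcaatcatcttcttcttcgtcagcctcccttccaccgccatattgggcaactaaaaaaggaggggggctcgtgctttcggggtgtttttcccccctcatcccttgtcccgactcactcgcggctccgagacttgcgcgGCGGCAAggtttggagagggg
Rb1: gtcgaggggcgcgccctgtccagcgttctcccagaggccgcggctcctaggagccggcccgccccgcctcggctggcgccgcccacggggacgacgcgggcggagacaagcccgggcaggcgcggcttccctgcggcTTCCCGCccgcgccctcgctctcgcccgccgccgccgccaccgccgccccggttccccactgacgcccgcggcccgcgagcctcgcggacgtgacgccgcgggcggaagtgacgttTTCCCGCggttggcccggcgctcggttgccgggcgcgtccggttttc
In Cdkn2c and Cdkn1b the match stood on the opposite strand, beginning 7 and 29 bases after the start. Rb1 held 2 matches, beginning 113 bases before and 3 bases after it, and the first overlapped a GC-box (GGGCGG or its complement), a motif found in 33.1% of all start regions. These letters mark no measured binding.

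For most of these genes the replicate number went with more of the variation than age did. The sum of squares over the 6 arrays was split into age, replicate number and remainder. The number takes 2 of the 5 degrees of freedom and age 1, so the shares are not on an equal footing. Number held the larger share in 8 of the 10 genes, and age in Ccnd2 (54.6% against 38.5%) and Cdkn2c (47.4% against 38.7%). At the other end, age held 0.147% for Rb1, 1.84% for Cdkn1a, 3.23% for Ccnd3 and 5.47% for Ccnd1, where number held 77.0%, 75.4%, 86.7% and 84.9%. The medians over all genes were 10.9% for age and 51.7% for number, so number also held the larger share in most genes of the array. The exact share of all genes was not counted, and the count of members is no trait of theirs. Cdk4 left the least to the remainder, 2.79%.

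**Figure D3:**
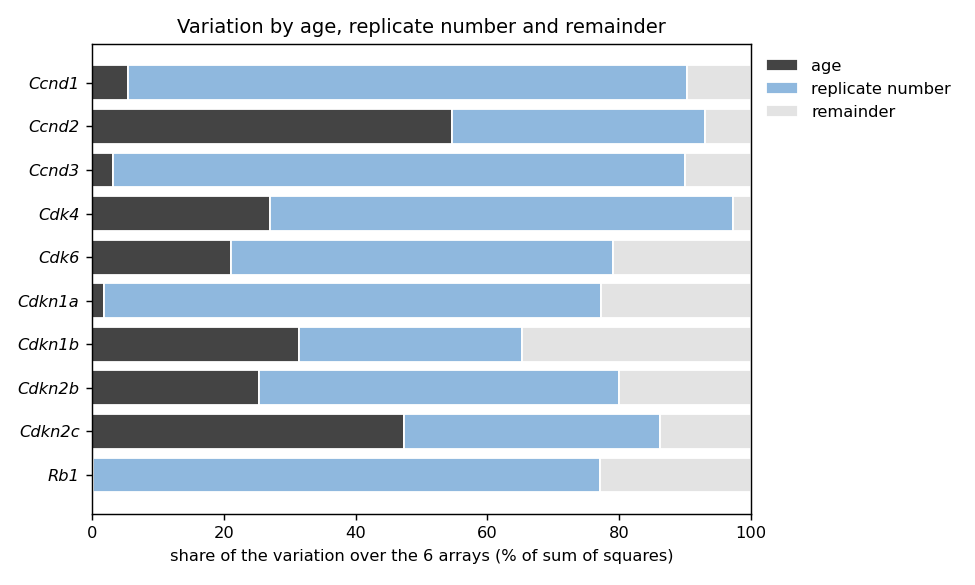
Share of the variation of each gene over the 6 arrays (percent of the sum of squares) that goes with age (dark), with replicate number (blue) and with neither (light grey). Age takes 54.6% for Ccnd2 and 47.4% for Cdkn2c, and under 6% for Ccnd1, Ccnd3, Cdkn1a and Rb1.

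Downstream of the retinoblastoma protein, values at 21 days were lower for most genes. All 17 measured S-phase genes listed as E2F targets, of 20 listed, had lower values, with a median difference of -0.23, beside 53.3% lower and a median of -0.0093 over all genes. In every same-number pair 11 of the 17 were lower (14.4% of all genes), and 3 had no overlap between the ages on the lower side (2.98% of all genes). None passed the test over all genes. At 21 days the smooth muscle markers and 6 of the 8 fibroblast markers were also lower and most Sertoli cell markers higher, as given above. The part of these cells in the S-phase values was not tested. Tyms, which makes thymidylate for DNA, was at 8.02, 7.58 and 7.48 at 21 days and at 8.25, 8.16 and 7.94 at 9 days (-0.43 ± 0.17, log2, SE). The DNA polymerase genes Pole and Pola1 differed by -0.48 ± 0.25 and -0.32 ± 0.15, and Pola1 was 1 of the 3 without overlap. The 5 genes of cyclins E and A, Cdk2 and the phosphatase Cdc25a all had lower values, with a median of -0.18, among them Ccna2 (-0.37 ± 0.26), Ccne1 (-0.29 ± 0.20) and Cdk2 (-0.18 ± 0.12). The 7 measured of 12 Rb relatives, E2F factors and their DP partners were mixed, 4 lower and 3 higher. E2f5, which works with the relatives of Rb as a repressor, differed by -0.46 ± 0.15, E2f8, an E2F that represses transcription, by -0.28 ± 0.10, and the DP gene Tfdp2 by 0.28 ± 0.23.

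Upstream genes showed no common direction. Of 19 measured inputs to cyclin D transcription, of 20 listed, 9 were lower and 10 higher, with a median of 0.061 and none past the test. Ctnnb1, which encodes beta-catenin, was at 9.34, 9.39 and 9.18 at 21 days and at 9.61, 9.73 and 9.45 at 9 days, with no overlap (-0.29 ± 0.10, log2, SE). Jun differed by 0.21 ± 0.23 and Foxo1, which restrains D cyclins and raises p27, by -0.18 ± 0.13. Of 11 measured genes for the turnover of cyclin D and p27, of 16 listed, 6 were lower and 5 higher: Cks1b, a cofactor in the degradation of p27, differed by -0.26 ± 0.12, the F-box gene Fbxo4 by 0.24 ± 0.14 and its cofactor gene Cryab by 0.20 ± 0.31. The 3 genes of the kinase that activates cyclin-dependent kinases were close to level, with Mnat1 at -0.12 ± 0.16, Cdk7 at 0.043 ± 0.068 and Ccnh at -0.029 ± 0.16.

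Genes that share regulation by p53 with Cdkn1a were split, with 8 of 14 measured lower, of 19 entries listed, and a median of -0.039. Perp, a p53 target of cell junctions, differed by 0.49 ± 0.17 (log2, SE), Tp53inp1 by 0.29 ± 0.44 and the kinase gene Plk2 by -0.26 ± 0.46. None passed the test. Of the other inhibitors, Cdkn2d was not analysed here. Cdkn1c, which encodes p57, differed by 0.018 ± 0.13, and Cdkn2a by -0.33 ± 0.21. Among 6 further partners of these kinases and cyclins, Cables1 (-0.13 ± 0.18), the cyclin D binding gene Ccndbp1 (-0.12 ± 0.081) and Ccng2 (-0.11 ± 0.27) had the largest differences.

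**Figure D4:**
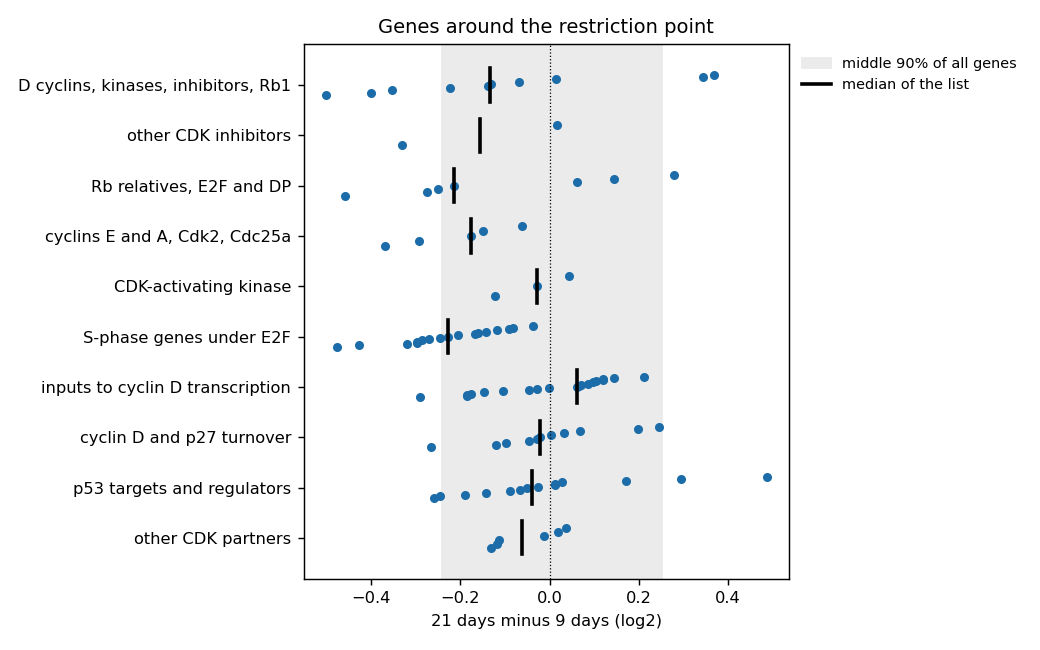
Difference between the ages (21 days minus 9 days, log2) for each measured gene of 10 lists around the G1 decision, 1 point per gene, with a black bar at the median of the list and a grey band for the middle 90% of all genes (-0.24 to 0.25). The S-phase genes lie wholly below 0 with a median of -0.23, while the inputs to cyclin D transcription lie on both sides with a median of 0.061.

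The patterns most like those of the more variable members were sought over all genes, for the 5 genes whose 6 values spanned at least 1 log2 unit. Likeness was the root mean square difference between values centred on each gene's own mean, and being the nearest of many genes over 6 arrays is a description only. Nearest to Ccnd2 were Adcy2, an adenylyl cyclase gene (0.0873), Rbm38 (0.115) and Tedc2 (0.115), set against 0.339 for the spread of Ccnd2 about its own mean. Nearest to Ccnd1 were Glrx (0.205), Ucn2 (0.230) and Kazald1 (0.230), against a spread of 0.788, and each of them was also lowest in the arrays numbered 3 at both ages. For Cdk6 they were Slc8a1 (0.0408), Naa15 (0.0826) and Lhfpl6 (0.0853), against 0.384, and for Cdkn1a Ifitm1 (0.140), S100a13 (0.166) and Lpar1 (0.172), against 0.485. For Cdkn2b they were Epb41l5 (0.0334), Drp2 (0.0643) and Fshr (0.0723), against 0.341, and all of these had their highest value in 21-day-old replicate 3.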

How the data were processed

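Total RNA was measured on 6 Affymetrix arrays, 3 per age. Per the submitters' processing notes, RMA gave the deposited log2 values: it corrects background, equalises the arrays by quantiles and summarises probes. No detection calls were used here, so how near a signal lies to background is not known. The number of arrays limits the precision. Of 29214 probe sets, 15310 have 1 symbol in the platform annotation, 323 have several and 13581 are unnamed here. Per gene the probe set of highest mean was kept, which left 14506 genes. Entrez numbers of 15279 probe sets were found in RefSeq, and 0 symbols changed. No gene coordinates of the array are given, since its build is not given in the sources used here.

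Ages were compared as 21 days minus 9 days in limma 3.58.1 (R 4.3.3; lmFit, eBayes, no covariates), with Benjamini-Hochberg adjustment over all genes. The script was tested on simulated data with independent noise and no effect of replicate number, so that test does not cover such an effect. Titles gave ages and numbers. Deviations from the age means correlated across genes at 0.439, 0.549 and 0.673 between arrays of the numbers 1, 2 and 3. Each was above a limit of 0.1, and the numbers were treated as pairs. Arrays of unlike numbers were not correlated in this way, so these values do not establish a pairing. What a number means is not given in the titles. Members and lists were chosen with earlier results of these data known, so no p is adjusted over a list. Besides the members, the 3 genes of largest difference per list were named. Others were named after their values were seen. These were Myc beside Cdk4 and the Sertoli cell markers Wt1, Gata4, Clu, Amh, Fshr, Cldn11, Tf, Testin and Defb36. The other markers so named were Ddx4, Sycp3, Gfra1, Uchl1, Tex101, Piwil1, Pdgfra, Pdgfrb, Thy1, Star, Insl3, Cd14 and Cdh5. Alternatives changed the block, filter, scaling, probe sets, variance model, weights and arrays. Figures used matplotlib 3.10.9.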

Additional observations from a re-analysis of the deposited data

How the results depend on the processing

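Over 18 alternative settings, no member passed an adjusted p of 0.05 in limma (lowest 0.201), and 6 to 8 of the 10 were lower at 21 days, beside 7 as reported. Of 180 member values 169 kept their direction, and 6 members never turned: Ccnd2, Cdk4, Cdk6, Cdkn1b, Cdkn2b and Cdkn2c. Settings that changed only the block, the filter, the probe sets or the variance model left every member's difference as it was. They could not turn a sign, so only scaling, weights and left-out arrays bear on these counts. Without 21-day-old replicate 3, Ccnd3 differed by 0.080, Cdkn1a by 0.24 and Rb1 by -0.12. Without both arrays numbered 3 they differed by 0.017, 0.078 and -0.023. Leaving out 9-day-old replicate 1, 2 or 3 gave -0.072 for Rb1, 0.018 for Ccnd3 and -0.24 for Ccnd1. Array weights gave 0.053 for Cdkn1a, and centring on medians -0.010 for Rb1. With each array left out in turn the differences lay between -0.24 and 0.79 for Ccnd1, -0.20 and 0.080 for Ccnd3, -0.54 and 0.24 for Cdkn1a, and -0.12 and 0.16 for Rb1. In the fit without the block these 4 differences were smaller than their SE. Beyond the arrays left out, the cause was not tested.

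The replicate block alone left 0 genes past the threshold and changed no call. With a trended robust prior besides the block 6 genes passed, and with the block and the 50% of genes of highest mean 5 passed, none of them a member. The cause was not tested. With single arrays left out, 0 genes passed in each case. Under the same omissions the change with age lay between -1.43 and -0.22 for Ccnd2 minus Ccnd1, between -0.72 and -0.21 for Ccnd2 minus Ccnd3, between -0.11 and 0.78 for Ccnd1 minus Ccnd3 and between -0.46 and 0.19 for Cdk6 minus Cdk4. The sign turned for Ccnd1 minus Ccnd3 without 9-day-old replicate 3 and for Cdk6 minus Cdk4 without 21-day-old replicate 2.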

Other observations

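The INK4 genes Cdkn2a and Cdkn2b had opposite signs. Cdkn2a, which encodes p16 and ARF, was at 3.50, 3.71 and 3.53 in 21-day-old replicates 1, 2 and 3, and at 3.71, 4.37 and 3.65 in the 9-day-old replicates, and was lower at 21 days in all 3 pairs. All but 1 of these values lay below the medians of the arrays. Cdkn2b was higher in all 3 pairs, with every value above the upper quartiles of the arrays. Neither difference passed the test.

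The Cdk6 signals of the arrays numbered 1 were identical at both ages to every digit deposited (6.79). Such exact ties occurred between the 2 arrays for 875 genes (6.03%) of number 1, 864 (5.96%) of number 2 and 1095 (7.55%) of number 3.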
